A study of Mus musculus with 2 samples.

Results

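The genes described here encode the major histocompatibility complex (MHC) of the mouse and the proteins that load it with peptide. They were taken as every gene whose symbol begins with H2- together with B2m, Cd74, Ciita, Tap1, Tap2, Tapbp, Tapbpl, Nlrc5 and Erap1. The RefSeq gene table listed 59 such genes, of which 43 had a probe among the 20659 genes named on the array, and 30 were measured, that is, had a probe well above background on both arrays. They were examined in blood cells of E13.5 mouse fetal liver that had been sorted by the fluorescence of SoNar, a genetically encoded sensor of the cytosolic NADH/NAD+ state, on the ratio of its signals at 2 excitation wavelengths. The SoNar-high population, of strain C57BL/6, gave 1 array, and the SoNar-low population, of strain C57BL, gave 1 array. Whether these labels name different strains is not stated, so for the polymorphic H2 genes strain and population cannot be told apart. Cy3-labelled RNA of each was read in 1 colour on an Agilent whole-genome array. No treatment separated the populations, both carried the sensor, and the sources used here do not give how it was introduced or how many embryos were pooled.

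Class I molecules consist of a heavy chain and beta-2 microglobulin, are displayed by most nucleated cells, and present peptides that the TAP transporter carries from the cytosol into the endoplasmic reticulum. Class II molecules are heterodimers of an alpha and a beta chain, are displayed mainly by B cells, dendritic cells and macrophages, and receive their peptides in endosomes after the invariant chain has been degraded. In fetal liver, where erythroblasts are the most abundant cells, class II transcripts mark the less numerous lymphoid and myeloid cells. Against the label of blood cells, all 5 pan-leukocyte and 7 erythroid markers with a named probe were measured, and so were 5 endothelial markers.

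With 1 array per group no test was possible, no p-value is given and no difference carries a replicate error. Signals are given as scaled signals, the processed intensity of a probe divided by the 75th percentile of all non-control spots of its array, equal to 186.5 units for SoNar-high and 222.2 units for SoNar-low cells. Each difference is the log2 scaled signal in SoNar-high minus that in SoNar-low cells. The error printed after a difference is the scanner software's own error estimate of the spots on both arrays, which holds technical error only and not that of animals, sorts or labelling. Precision is limited by the number of arrays, and fewer cells of a type cannot be told apart from less RNA per cell in a sorted bulk sample. Among 10223 genes measured on both arrays the median difference was -0.08. Of them 5.28% were higher and 4.44% lower by 2-fold or more, 44.2% lay above 0 and 55.8% below 0. With the 75th percentile taken over detected spots only, the split of 540 higher and 454 lower genes became 782 (7.65%) and 247 (2.42%), and the median of all genes shifted by 0.15.

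Class II genes were lower in SoNar-high cells as a group, most of them by less than 2-fold in every setting. All 8 measured genes (7 chains and Cd74) had a difference below 0, except for H2-DMa after normexp, a model-based background correction. Their median was -0.58 and their range from -0.92 to -0.17, against a median of -0.08 over all genes and 55.8% of them below 0. None was at least 2-fold lower as scaled here, where 4.44% of all genes were. H2-Aa passed 2-fold under quantile normalization and in the deposited table (-1.14 in both), and H2-Ob with the median over its probes (-1.01). The differences of 5 of the 8 exceeded 2 times their scanner error, all below 0, where 43.4% of all genes did so in either direction and 25.7% below 0. Relative to the median of all genes the class II median was -0.50, and -0.22 after normexp, when 7 of the 8 lay below 0 where 54.3% of all genes did.

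H2-Eb1, the beta chain of I-E, had a scaled signal of 2.76 in SoNar-high cells and 5.23 in SoNar-low cells, a difference of -0.92 ± 0.21. Its alpha partner H2-Ea, listed as a transcribed pseudogene in the C57BL/6J reference, had no named probe. H2-Ab1, the beta chain of I-A, had 9.69 in SoNar-high and 15.3 in SoNar-low cells (-0.66 ± 0.20), and its other probe gave -0.55. H2-Aa, the alpha chain of I-A, had 0.188 in SoNar-high and 0.334 in SoNar-low cells (-0.83 ± 0.40). The probes of I-A and I-E were thus dimmer in SoNar-high cells in each case, but that of H2-Aa, with processed signals of 35.1 units in SoNar-high and 74.2 in SoNar-low cells, was close to background. Across settings H2-Aa ran from -1.14 to -0.07, H2-Eb1 from -0.92 to -0.57 and H2-Ab1 from -0.66 to -0.43, with the end nearer 0 reached after normexp for H2-Aa and H2-Eb1.

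Cd74, the invariant chain that occupies the class II groove until the endosome is reached, had a scaled signal of 0.945 in SoNar-high cells and 1.74 in SoNar-low cells (-0.88 ± 0.21, and -0.68 after normexp). H2-DMa and H2-DMb1 form the DM heterodimer that exchanges the invariant chain remnant for peptide. H2-DMb1 had 0.912 in SoNar-high and 1.29 in SoNar-low cells (-0.50 ± 0.22). H2-DMa had 0.605 in SoNar-high and 0.680 in SoNar-low cells (-0.17 ± 0.24), a difference smaller than its scanner error that turned to 0.02 after normexp. H2-Oa and H2-Ob form the DO heterodimer, which inhibits DM. H2-Oa had 0.375 in SoNar-high and 0.486 in SoNar-low cells (-0.38 ± 0.26), and H2-Ob 0.289 in SoNar-high and 0.378 in SoNar-low cells (-0.39 ± 0.30). A further probe of H2-Ob gave -1.63 ± 0.35, so the 2 measured probes of that gene differed more from each other than either error. H2-DMb2 and H2-Eb2 were not well above background on either array, and the pseudogenes H2-Pa and H2-Pb had no named probe.

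Ciita, the transactivator on which class II transcription depends, differed by less than its scanner error. It had a scaled signal of 0.376 in SoNar-high cells and 0.345 in SoNar-low cells (0.13 ± 0.32), and across settings its difference ran from -0.06 to 0.28. Cd74 lay 1.00 (log2) below Ciita in its difference, with a combined scanner error of 0.38, a quantity that no scaling factor of an array can alter. Other processing can alter it, and under quantile normalization Cd74 was at -0.84 and Ciita at -0.06. The Ciita probe was dim, at 70.2 processed units in SoNar-high and 76.6 in SoNar-low cells. Of the factors that bind class II promoters together with Ciita, 5 were measured, with a median difference of -0.24. Nfya, a subunit of the NF-Y factor that binds the Y box, was 2.04-fold lower (-1.03 ± 0.23, and -0.72 after normexp), Nfyb was at -0.45, Creb1 at -0.24 and Nfyc at 0.08. Of the RFX subunits, named after their signals were seen, Rfxank was at 0.21, and Rfx5 and Rfxap were not well above background on either array.

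**Figure D1:**
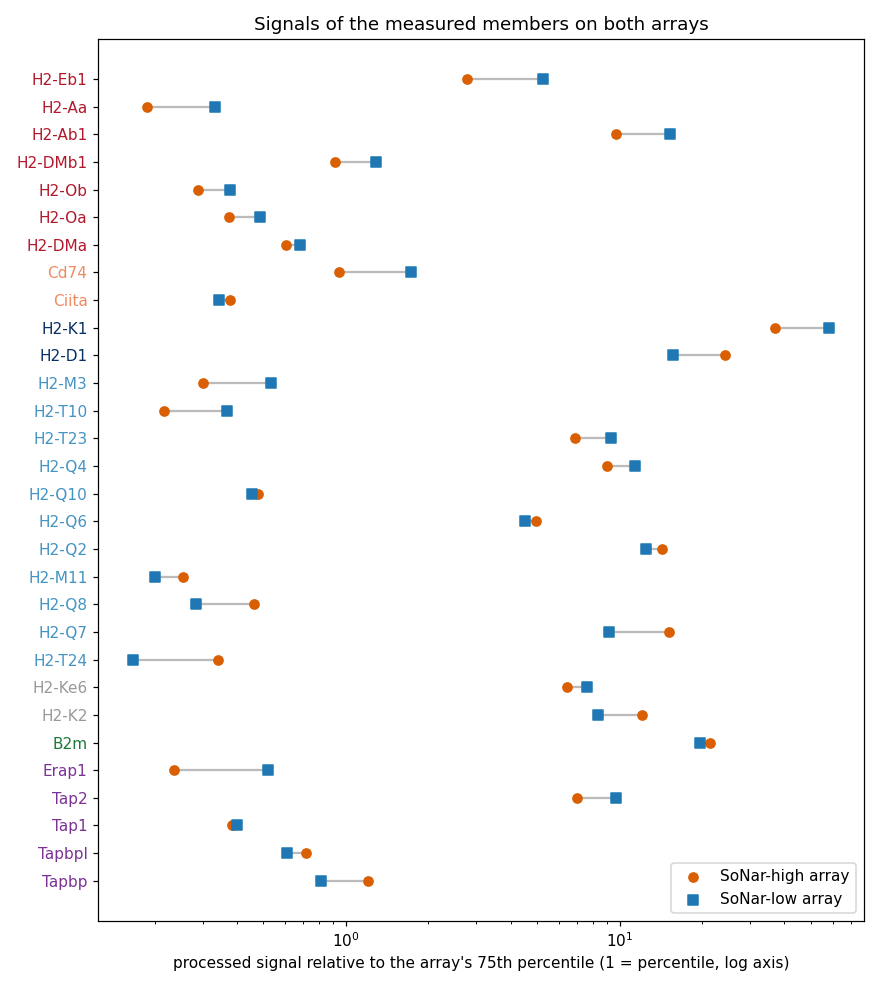
Scaled signal (processed signal over the array's 75th percentile, log axis) of the 30 measured members, 1 probe a gene, with the SoNar-high array as circles and the SoNar-low array as squares. Gene names are coloured by class. The circle lies left of the square for each of the 7 class II chains in red and for Cd74 (after normexp not for H2-DMa), and on either side of it among class I heavy chains in blue. Levels of different probes are not comparable.

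Class II promoters share a set of sequence elements, and the windows of the class II chains described above are shown for that reason. Of the 59 members, 36 matched an entry among the RefSeq promoter windows of build GRCm38.p6, which run from 250 bases before to 50 bases after each listed start. The Y box was searched as TGATTGG and its reverse complement CCAATCA, whose letters hold the common CCAAT element, and the X1 box on both strands with the letters that are in capitals upstream of the Y box of H2-Eb1, the seventh of them left free. Of 32851 windows of all genes, 7.82% held the Y box letters on either strand, 4.01% in the orientation written and 4.08% in reverse. They were in the orientation written in windows of 7 of 8 class II chains, and of 5 of the 6 that were measured. Each member counts once here even with several windows, while the shares of all windows count every window. The X1 letters were in the windows of H2-Eb1 and H2-Eb2, and in 0.07% of all windows. The match in H2-Eb1 is no separate result, since the letters searched are described by its window. Only exact matches were counted, and near matches upstream of the Y box in H2-DMb1 and H2-Ob are not marked. Below are the 200 bases before the start, 5′ to 3′, in lower case with the Y box and X1 letters in capitals. A match is a description of the sequence only.
H2-Aa (chr17:34287824-34288023, minus strand): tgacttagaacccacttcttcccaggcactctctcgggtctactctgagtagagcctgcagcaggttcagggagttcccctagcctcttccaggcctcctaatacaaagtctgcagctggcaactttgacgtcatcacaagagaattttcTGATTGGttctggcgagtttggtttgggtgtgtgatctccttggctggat
H2-Eb1 (chr17:34305667-34305866, plus strand): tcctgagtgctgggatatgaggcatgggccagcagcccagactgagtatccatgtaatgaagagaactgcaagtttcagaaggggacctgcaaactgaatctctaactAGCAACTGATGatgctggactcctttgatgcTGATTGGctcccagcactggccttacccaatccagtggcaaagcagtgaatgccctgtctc
H2-DMb1 (chr17:34152991-34153190, plus strand): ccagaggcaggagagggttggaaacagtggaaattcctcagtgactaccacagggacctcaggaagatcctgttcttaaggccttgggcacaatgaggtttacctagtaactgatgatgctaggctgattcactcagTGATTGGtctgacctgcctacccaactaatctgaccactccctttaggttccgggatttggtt
H2-Oa (chr17:34092179-34092378, plus strand): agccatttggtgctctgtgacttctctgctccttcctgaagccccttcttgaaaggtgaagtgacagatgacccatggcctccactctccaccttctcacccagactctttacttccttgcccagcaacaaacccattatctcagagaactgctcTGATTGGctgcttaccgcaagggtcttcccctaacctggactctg
H2-Ob (chr17:34238705-34238904, plus strand): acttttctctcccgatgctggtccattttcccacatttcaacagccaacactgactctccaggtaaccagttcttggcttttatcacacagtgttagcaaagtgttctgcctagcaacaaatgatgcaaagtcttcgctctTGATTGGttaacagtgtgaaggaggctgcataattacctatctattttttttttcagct
The Y box began 45 bases before the listed start in H2-Oa, 50 in H2-Aa and 59 in H2-Ob. It began 61 bases before the start in H2-Eb1 and 63 in H2-DMb1. In class II windows not shown, it began 92 bases before the start in H2-DMb2 and 102 in H2-Eb2. In H2-Eb1 the X1 letters began 92 bases before the start, upstream of the Y box. The 5 genes whose windows are shown had differences of -0.38 (H2-Oa), -0.83 (H2-Aa), -0.39 (H2-Ob), -0.92 (H2-Eb1) and -0.50 (H2-DMb1). The window of H2-DMa held neither set of letters. Of the 7 measured class II chains, 6 had a window. Whether these letters bear on the differences was not tested.

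Class I genes differed in both directions. Of 24 class I genes with a probe (heavy chains and B2m), 14 were measured. Their median difference was 0.13, with 9 above 0 and 5 below 0 and a range from -0.82 to 1.03, where 44.2% of all genes lay above 0, and 1 was at least 2-fold higher where 5.28% of all genes were. The class II median lay 0.71 (log2) below the class I median. The gap was 0.36 after normexp and 0.47 with dim probes kept, and class II lay below class I in each of the 10 settings used. The differences of 8 of the 14 class I genes exceeded 2 times their scanner error, 4 of them below and 4 above 0, where 43.4% of all genes did.

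The classical class I heavy chains had opposite signs. H2-K1, the K heavy chain, had a scaled signal of 37.1 in SoNar-high cells and 58.1 in SoNar-low cells, a difference of -0.65 ± 0.20. Its main probe is printed 10 times on the array, with 9 usable spots in SoNar-high and 10 in SoNar-low cells whose log2 signals had an SD of 0.047 and 0.070, so the difference was larger than the spread between spots, and the other H2-K1 probe gave -0.48. H2-D1, the D heavy chain, had 24.2 in SoNar-high and 15.7 in SoNar-low cells (0.62 ± 0.20). The differences of H2-D1 and H2-K1 lay 1.27 apart, with a combined scanner error of 0.29, and each gene kept its sign in all 10 settings. B2m, the light chain common to both, had 21.5 in SoNar-high and 19.6 in SoNar-low cells (0.13 ± 0.20), within its scanner error. Class I heavy chain genes are close copies of each other, the probe sequences were not used here, and a probe may detect several of them, which leaves single values uncertain.

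The windows of the classical heavy chains and of H2-Q7, each of which held the NF-kappaB site of enhancer A, are shown as examples. That site was searched on both strands with the letters of the first capitals of each line. It was in the windows of H2-K1, H2-D1, H2-Q6 and H2-Q7, which is 4 of 23 class I heavy chain genes with a window. It was in 0.107% of all windows. The letters CCAATCA, the Y box in reverse, were in 15 of the 23, and TGATTGG as written in 1, H2-T22. Capitals in the 200 bases before the start mark both elements.
H2-K1 (chr17:34000348-34000547, minus strand): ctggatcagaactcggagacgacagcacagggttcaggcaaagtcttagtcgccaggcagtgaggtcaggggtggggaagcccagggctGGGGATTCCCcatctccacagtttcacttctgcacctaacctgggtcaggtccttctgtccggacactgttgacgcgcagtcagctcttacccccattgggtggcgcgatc
H2-D1 (chr17:35262894-35263093, plus strand): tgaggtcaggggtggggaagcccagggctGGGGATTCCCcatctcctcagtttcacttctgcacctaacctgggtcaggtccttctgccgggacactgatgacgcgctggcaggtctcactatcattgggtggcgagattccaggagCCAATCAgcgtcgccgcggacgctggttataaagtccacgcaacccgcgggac
H2-Q7 (chr17:35438955-35439154, plus strand): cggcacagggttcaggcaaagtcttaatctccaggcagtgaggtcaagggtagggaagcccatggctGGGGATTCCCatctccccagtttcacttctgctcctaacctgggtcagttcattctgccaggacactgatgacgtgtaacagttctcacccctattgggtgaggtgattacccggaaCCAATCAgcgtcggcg
The NF-kappaB site began 111 bases before the start shown for H2-K1, which has 2 listed starts, 171 before that of H2-D1 and 133 before that of H2-Q7. CCAATCA began 53 bases before the start of H2-D1 and 16 before that of H2-Q7, while in H2-K1 it lay after the start shown. The genes with the NF-kappaB site had differences of -0.65 (H2-K1), 0.62 (H2-D1), 0.73 (H2-Q7) and 0.13 (H2-Q6). Whether any of these letters bear on the differences was not tested. For the interferon-stimulated element only the letters GAAA, any 2 bases and GAAA were searched, on both strands. They were in the windows of B2m, Erap1, H2-T22 and H2-T23, in no class II window and in 3.44% of all windows. Other forms of the element were not searched, so a window without these letters may still hold one.

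Among the Q genes, H2-Q7, which encodes the Qa-2 antigen, had a scaled signal of 15.2 in SoNar-high cells and 9.17 in SoNar-low cells (0.73 ± 0.20), and H2-Q8, a close copy, had 0.460 in SoNar-high and 0.283 in SoNar-low cells (0.70 ± 0.29, and 0.37 after normexp). H2-Q2 was at 0.20 and 0.36 with its 2 probes, H2-Q6 at 0.13 ± 0.20 and H2-Q4 at -0.34 ± 0.20 (-0.16 after normexp and -0.12 after loess). Of H2-Q10, a secreted class I protein made by liver, 1 probe was measured (0.06 ± 0.25, and the sign changed between settings) and the other passed background in SoNar-high cells only, at 84.6 processed units against 34.8 in SoNar-low cells. The Q genes thus lay above 0 apart from H2-Q4 and, in some settings, H2-Q10.

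The T and M genes had differences of both signs. H2-T23, the Qa-1 heavy chain that natural killer cells recognise through the receptor that contains Klrd1, had 6.85 in SoNar-high and 9.34 in SoNar-low cells (-0.45 ± 0.20). H2-T10, related to a ligand of gamma delta T cells, had 0.216 in SoNar-high and 0.367 in SoNar-low cells (-0.76 ± 0.34). It is listed as a transcribed pseudogene but was counted in class I here by its symbol. H2-M3, which presents N-formylated peptides, had 0.302 in SoNar-high and 0.531 in SoNar-low cells (-0.82 ± 0.29). H2-T24 was the 1 member at least 2-fold higher, with 0.340 in SoNar-high and 0.167 in SoNar-low cells (1.03 ± 0.38, or 2.04-fold), while its other probe was not well above background on either array. It did not pass 2-fold after loess (0.96), under quantile normalization or in the deposited table (0.73 in both), where no member was 2-fold higher. H2-M11 was at 0.34 ± 0.37. These 4 probes were dim, and after normexp H2-T10 was at -0.27, H2-M3 at -0.32, H2-T24 at 0.43 and H2-M11 at 0.23.

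The remaining class I genes on the array were not well above background on either array. These were H2-Q1, H2-T3, H2-M1, H2-M5, H2-M9, H2-M10.1, H2-M10.2, H2-M10.3, H2-M10.4 and H2-M10.6, and the class I transactivator Nlrc5 joined them with both of its probes. Other symbols that begin with H2- belong to no class here. The transcribed pseudogene H2-K2 had 12.1 in SoNar-high and 8.35 in SoNar-low cells (0.53 ± 0.20, and 0.42 with its other probe), and H2-Ke6, an enzyme gene of the region also named Hsd17b8, had -0.24 ± 0.20.

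**Figure D2:**
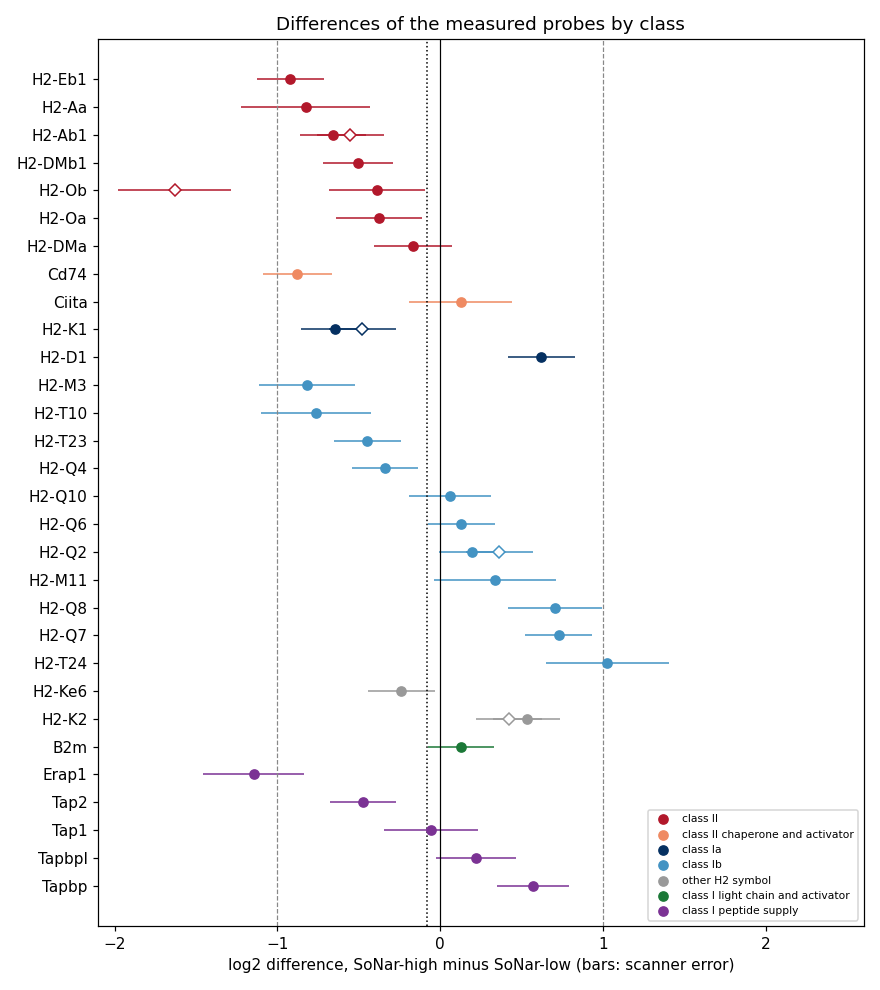
Log2 difference (SoNar-high minus SoNar-low) of each measured probe with the scanner error of both arrays as bars. Filled circles are the probes used for a gene and open diamonds its further probes, dashed lines mark 2-fold and the dotted line the median of all genes (-0.08). Class II genes in red lie between -0.92 and -0.17 apart from 1 further probe of H2-Ob at -1.63 (H2-DMa is at 0.02 after normexp), and class I genes in blue spread over both sides of 0.

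Genes of peptide supply to class I also differed in direction. Of 5 measured genes 2 were above and 3 below 0, with a median of -0.06. Tap2, a subunit of the peptide transporter, had 6.98 in SoNar-high and 9.68 in SoNar-low cells (-0.47 ± 0.20). Its partner Tap1, printed 10 times with spot SDs of 0.074 in SoNar-high and 0.106 in SoNar-low cells (log2), had 0.385 in SoNar-high and 0.401 in SoNar-low cells (-0.06 ± 0.29), and the sign changed between settings. Tapbp (tapasin), which bridges class I to the transporter, had 1.20 in SoNar-high and 0.811 in SoNar-low cells (0.57 ± 0.22), and its relative Tapbpl, a peptide editor, had 0.22 ± 0.25. The differences of Tapbp and Tap2 lay 1.04 apart, with a combined scanner error of 0.30. Erap1, the aminopeptidase that trims peptides in the endoplasmic reticulum, was the 1 member at least 2-fold lower, with 0.235 in SoNar-high and 0.520 in SoNar-low cells (-1.14 ± 0.31, or 2.21-fold). Its single probe was dim, at 43.9 processed units in SoNar-high and 115.5 in SoNar-low cells, and after normexp it was at -0.54.

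Of the 30 measured members, 2 thus passed 2-fold in either direction, where 9.72% of all genes did. Both genes had processed signals under 100 units on at least 1 array, as 12 of the 30 did, and after normexp neither passed 2-fold, where 4.97% of all genes did. With the 75th percentile of detected spots 1 did, H2-T24, where 10.1% of all genes did. Under quantile normalization 3 did, Erap1, H2-Aa and H2-T10 (-1.04), all lower, where 9.79% of all genes did, and the same 3 passed in the deposited table.

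All class II chains and most class I genes lie in 1 region of chromosome 17, so their differences were set out in gene order. Of the measured members, 24 had a place on the assembled chromosome. An unbroken run of 11, from H2-K1 to H2-Eb1, lay below 0. The ends of the run were set where the sign changed, so its share below 0 cannot be compared with the 55.8% of all genes. The run held the 7 class II chains already described, Tap1 and Tap2. Tap1 (-0.06) lay above 0 after normexp and with both scalings on detected spots, and H2-DMa did after normexp. H2-D1, the next measured member, was at 0.62, and from there to H2-M3 the signs were mixed. The run below 0 holds the class II genes, so gene order and class cannot be told apart within it, while H2-K1 and Tap2 in that run belong to class I.

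**Figure D3:**
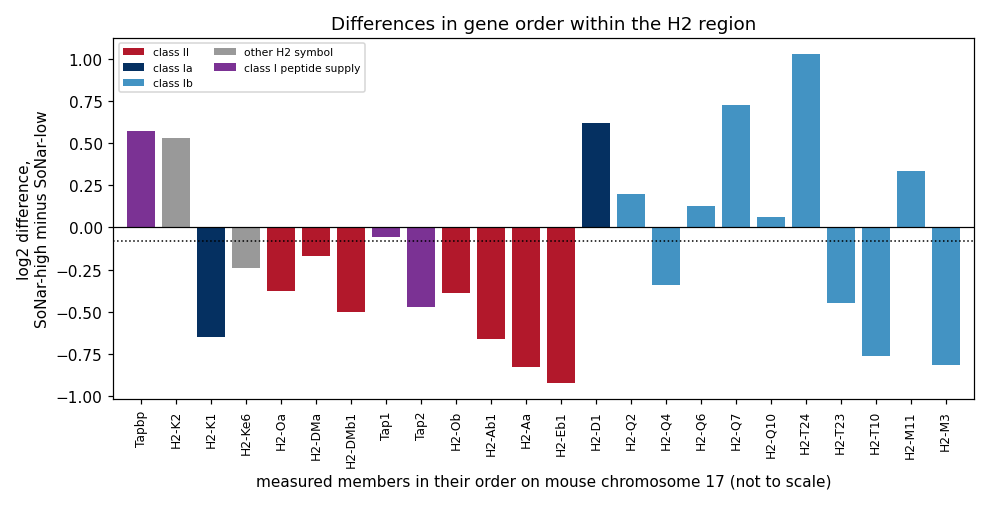
Log2 difference (SoNar-high minus SoNar-low) of 24 measured members in their order on mouse chromosome 17, not to scale, as bars coloured by class with the dotted line at the median of all genes. Every bar from H2-K1 to H2-Eb1 points down (Tap1 and H2-DMa would point up after normexp, and Tap1 when scaled on detected spots). Before that run Tapbp and H2-K2 point up, and after it bars point up or down. Cd74, B2m, Ciita, Tapbpl and Erap1 lie on other chromosomes and are not drawn. H2-Q8, measured but without a place on the assembled chromosome, is not drawn either.

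Other genes of the pathway were taken from lists. The immunoproteasome, which cuts peptides for class I, had each of its 5 measured genes below 0, with a median of -0.61 and a range from -0.84 to -0.20, and none passed 2-fold, where 55.8% of all genes lay below 0 and 4.44% were 2-fold lower. Psmb10 was at -0.84, Psmb8 at -0.74, the activator subunit Psme2 at -0.61 and Psme1 at -0.23. The folding chaperones of class I in the endoplasmic reticulum were Calr (0.51), Pdia3 (0.47) and Canx (-0.49). The list of class II processing genes held endosomal enzymes, and also Cd83 and others that act on class II at the cell surface. Its genes did not all share the direction of the class II chains. Of 7, 5 were above 0, the median was 0.21, and Lgmn, an asparagine-specific endopeptidase, was 2.42-fold higher (1.27 ± 0.20). Ifi30, the lysosomal thiol reductase, was at 0.80, Cd83, which keeps class II at the cell surface, at -0.92, and Ctss, the cathepsin that degrades the invariant chain, at -0.26.

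Interferon and NF-kappaB regulators had a median of -0.40 over 11 measured genes, with 8 below 0 and 2 of them past 2-fold, against the same shares of 55.8% and 4.44% over all genes. Irf1, an activator of class I and Ciita promoters, was 2.04-fold lower (-1.03 ± 0.20), and Irf8 was 2.31-fold lower. Ifngr1, the ligand-binding chain of the interferon gamma receptor, was at -0.72. Of MHC-like genes, Fcgrt, the neonatal Fc receptor, was 3.35-fold higher (1.75 ± 0.26), Hfe, a regulator of iron uptake, was at 0.61, and Cd1d1, which presents lipids, was at -0.95. Of the co-stimulatory genes Cd274 (PD-L1) was 3.34-fold lower (-1.74 ± 0.29, and -0.84 after normexp, under 2-fold), while Cd80 was at 0.58 and Icosl at 0.32.

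Markers of the B lymphoid, dendritic and macrophage lineages differed in opposite directions, where 5.28% of all genes were higher and 4.44% lower by 2-fold. The B lymphoid list included genes of B cell precursors, and whether the cells behind any list displayed class II was not measured. All 9 measured B lymphoid markers were below 0 (Pax5 at 0.03 after normexp), 6 of them past 2-fold, their median was -1.54, and their summed processed signal was 4786 units in SoNar-high and 16478 in SoNar-low cells. Dendritic cell markers had 6 of 6 measured genes below 0 (Clec9a at 0.07 after normexp), of which Itgax (-1.54, and -0.74 after normexp) passed 2-fold, a median of -0.45 and a sum of 2239 units in SoNar-high and 3571 in SoNar-low cells, while Xcr1, Zbtb46 and Cd209a were not well above background on either array. Macrophage markers had 7 of 7 measured genes above 0 and past 2-fold, a median of 3.03 and a sum of 12719 units in SoNar-high and 2206 in SoNar-low cells. T and natural killer markers had 4 of 6 measured genes past 2-fold below 0, with sums of 1989 units in SoNar-high and 7566 in SoNar-low cells, while Cd3e was at 0.87 and Nkg7 at 0.22. Of its other genes Cd3d was well above background in SoNar-high cells only, and Cd3g and Il2rb in SoNar-low cells only. Erythroid markers had 6 of 7 past 2-fold above 0, with sums of 49794 units in SoNar-high and 29049 in SoNar-low cells, and the 5 pan-leukocyte markers were all within 2-fold (median 0.01). Endothelial markers had 4 of 5 past 2-fold above 0 (median 2.56), with sums of 3747 units in SoNar-high and 1011 in SoNar-low cells. These sums are unscaled and weight the brightest probes most, with Hba-a1 at 36424 units in SoNar-high cells. With the sums scaled, the log2 ratio was -1.53 for B lymphoid, -0.42 for dendritic and 2.78 for macrophage markers. It was -1.67 for T and natural killer, 1.03 for erythroid and 2.14 for endothelial markers. The class II median (-0.58) thus had the sign of the B lymphoid and dendritic medians and not that of the macrophage median. The T and natural killer median (-2.07) shared that sign, so it was not particular to the B lymphoid and dendritic lists. The part of any of these cell types in the class II difference was not tested.

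**Figure D4:**
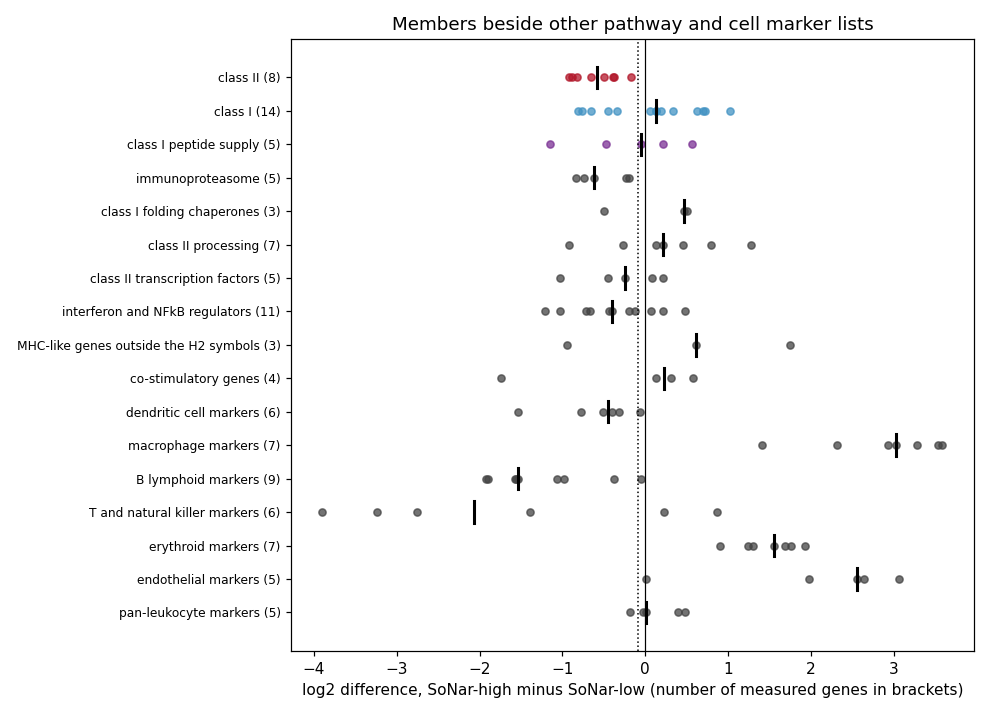
Log2 difference (SoNar-high minus SoNar-low) of each measured gene in the class II, class I and peptide supply groups and in 14 other lists, with the number of measured genes in brackets, black bars at the medians and the dotted line at the median of all genes. The class II genes sit near the dendritic cell list (-0.45) and the immunoproteasome (-0.61), between the B lymphoid list (-1.54) and the macrophage list (3.03).

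**Figure D5:**
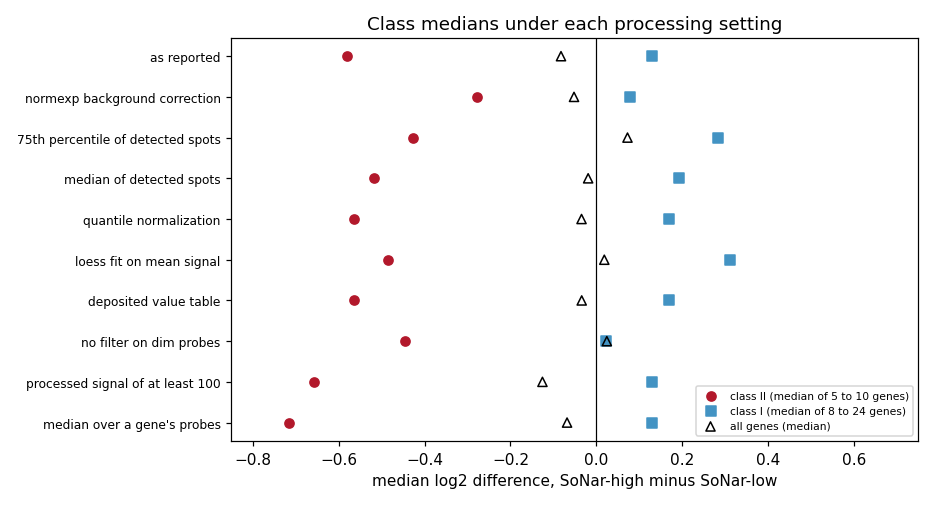
Median log2 difference (SoNar-high minus SoNar-low) of class II genes (circles), class I genes (squares) and all genes (triangles) under each of 10 processing settings. The class II median lies below 0 and below that of all genes in each, from -0.72 to -0.28, and the class I median lies between 0.02 and 0.31.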

How the data were processed

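The deposited spot intensity values come from Agilent's Feature Extraction software, whose processed signal is background-subtracted and detrended, per the file headers. The headers name version 11.0.1.1 and the submitters' processing notes 9.1. The authors also deposited a table of log2 values with unstated normalization. Its columns share a median of 4.80, and its difference between columns had a correlation of 0.966 with that of the scanner files over measured probes, which settled its direction.

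Control spots and outlier spots (225 for SoNar-high, 135 for SoNar-low) were left out, log2 signals were scaled to the 75th percentile of 43020 spots, and spots of a probe were averaged (Python 3.11.15, limma 3.58.1 for normexp with offset 50 on median spot signals). No spot was saturated. Well above background were 49.4% of SoNar-high and 42.4% of SoNar-low spots. Probes were named through transcript accessions in RefSeq of GRCm38.p6, for names and gene order only, since the array design refers to mm9. Of 39429 probes, 27234 were named and 15975 measured on both arrays. A gene was given by its brightest measured probe. Every member with a probe well above background on at least 1 array could be named with values, and of each other pathway list the brightest gene, the 3 with the largest differences and those past 2-fold. The members, classes, lists and settings were chosen with earlier results of these data known. Counting at 2-fold was tested on simulated data.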

Additional observations from a re-analysis of the deposited data

How the results depend on the processing

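The class II median stayed below 0 and the class I median above 0 in each of the 10 settings. A value counted as moved past 0.158 (log2). This is the median, over measured probes printed 10 times, of the spot SDs of both arrays combined as the root of their summed squares. After normexp the class II median was -0.28 and the gap between class II and class I -0.36, and without a filter on dim probes the gap was -0.47. The class I median was 0.31 after loess (span 0.3). Of the 30 members, 2 passed 2-fold as reported. None did after normexp or at 3-fold, none of the 18 with processed signals of at least 100 did, 1 did with the 75th percentile of detected spots and 1 after loess, 4 of 43 (2 higher, 2 lower) did with dim probes kept, 3 (0 higher, 3 lower) under quantile normalization and in the deposited table, and 3 (1 higher, 2 lower) with the median over probes. Ciita, H2-DMa, H2-Q10 and Tap1 changed sign in at least 1 setting, and no other member did. The median over all genes shifted by 0.10 under loess and by 0.11 with dim probes kept. No paired analysis was possible because each group has 1 array. Background limits dim probes, and 12 of 30 measured members were under 100 units on at least 1 array.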
